A study of Caenorhabditis elegans with 2 samples.

Results

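The hypoxia response pathway of Caenorhabditis elegans is described here by 6 genes, hif-1, aha-1, egl-9, vhl-1, rhy-1 and cysl-1, out of 19973 protein-coding genes on the nuclear chromosomes. The genes were chosen by name. For each, all peak summits from 3000 bp upstream of the annotated 5′ end to the 3′ end were collected, and this stretch is called the gene window below. A peak that passed the authors' threshold is called a site, and a ranked peak that did not pass is called a failing candidate. Of 4560 sites, 5 lay in the 6 windows, and they belonged to hif-1, egl-9 and cysl-1. The genes were taken up with these peaks known, so their sites are described and not tested.

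Chromatin immunoprecipitation followed by sequencing (ChIP-seq) mapped where NHR-19, a nuclear hormone receptor, was found on DNA. The single group holds 2 biological replicates of whole L1 larvae aged 6 h that were starved after bleaching, from strain OP791. These worms carry wgIs791, a transgene of nhr-19 fused to TY1, EGFP and FLAG tags, with the rescue marker unc-119(+), in the unc-119 (tm4063) mutant, so no sample lacks the transgene and there is no untagged group. Immunoprecipitation used an anti-GFP antibody according to the description, whereas another label field gives nhr-19 as the antibody.

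HIF-1 is the transcription factor that turns on genes when oxygen is low, and it binds DNA together with AHA-1, the worm counterpart of ARNT. With enough oxygen, the prolyl hydroxylase EGL-9 modifies HIF-1, and VHL-1, the substrate receptor of a ubiquitin ligase, then directs its destruction. CYSL-1, a protein of the cysteine synthase family, binds EGL-9 and keeps it from acting, and RHY-1, a membrane protein related to acyltransferases, holds CYSL-1 back. Transcription of egl-9 and rhy-1 is itself raised by HIF-1, so the pathway contains feedback.

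The sequences below show the 101 bp centred on each of the 5 summits, and on the strongest failing candidate of rhy-1, because they are the DNA at the peaks described below. They were read from the WBcel235 genome (RefSeq) on the strand of the gene, 5′ to 3′. Capitals mark matches on either strand to any of 5 searched words, which are the hypoxia response core recognised by HIF factors (ACGTG or GCGTG), the E-box (CACGTG), the GAGA repeat (GAGAGA), the nuclear receptor half-site (AGGTCA or GGGTCA, and also AGTTCA or GGTTCA) and the CG-rich box (CCGCCC). An E-box contains ACGTG on both strands and so also counts as a hypoxia response core.
hif-1 distal site, chrV:20778371-20778471, plus strand: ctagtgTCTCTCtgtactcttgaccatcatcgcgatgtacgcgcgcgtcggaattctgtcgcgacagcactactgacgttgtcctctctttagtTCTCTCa
hif-1 proximal site, chrV:20780111-20780211, plus strand: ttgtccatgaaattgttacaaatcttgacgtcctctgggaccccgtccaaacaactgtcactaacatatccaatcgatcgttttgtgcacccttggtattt
hif-1 intron site, chrV:20782323-20782423, plus strand: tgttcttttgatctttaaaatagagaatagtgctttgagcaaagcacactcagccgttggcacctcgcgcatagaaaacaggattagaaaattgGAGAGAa
egl-9 site, chrV:10466708-10466808, plus strand: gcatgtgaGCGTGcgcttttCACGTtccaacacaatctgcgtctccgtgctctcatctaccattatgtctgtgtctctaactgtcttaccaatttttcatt
cysl-1 site, chrX:9956672-9956772, minus strand: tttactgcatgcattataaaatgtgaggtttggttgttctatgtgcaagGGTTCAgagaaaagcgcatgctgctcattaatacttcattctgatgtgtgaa
rhy-1 failing candidate, chrII:9160355-9160455, plus strand: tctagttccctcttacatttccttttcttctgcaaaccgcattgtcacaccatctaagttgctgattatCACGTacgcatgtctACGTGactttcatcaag

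Peaks are measured by the authors' signal value, a height that ranks peaks within a list and is not directly comparable between lists. Ratios of the replicates' signals are therefore read below only against the same ratio over all sites. The list made from both replicates held 4560 peaks with a median signal of 267, and the lists of replicates 1 and 2 alone held 3780 and 3763 peaks. Reproducibility is given as the irreproducible discovery rate (IDR), the share of peaks at that level expected not to recur between replicates, and the deposited lists stop at 1.00e-05. The depth of the libraries is unknown. No other tagged protein and no control library was analysed here, so signal that is not specific to NHR-19 was not tested. The replicates are called biological in the labels, and nothing more is said of how they were grown.

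A site was present at 3 of the 6 genes, hif-1, egl-9 and cysl-1, whereas 4791 protein-coding genes, or 24.0%, had a site in a window of the same kind. The choice of genes used these peaks, so the share is given as background only. Windows of the 6 genes were 4163 to 11399 bp long against a median of 5027 bp over all genes, and longer windows hold sites more often. The gene hif-1 alone had 3 sites. A count of 3 or more occurred at 1.38% of genes, and at 4.35% of the 3382 genes with a window at least as long as that of hif-1. The windows also held 24 failing candidates.

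**Figure D1:**
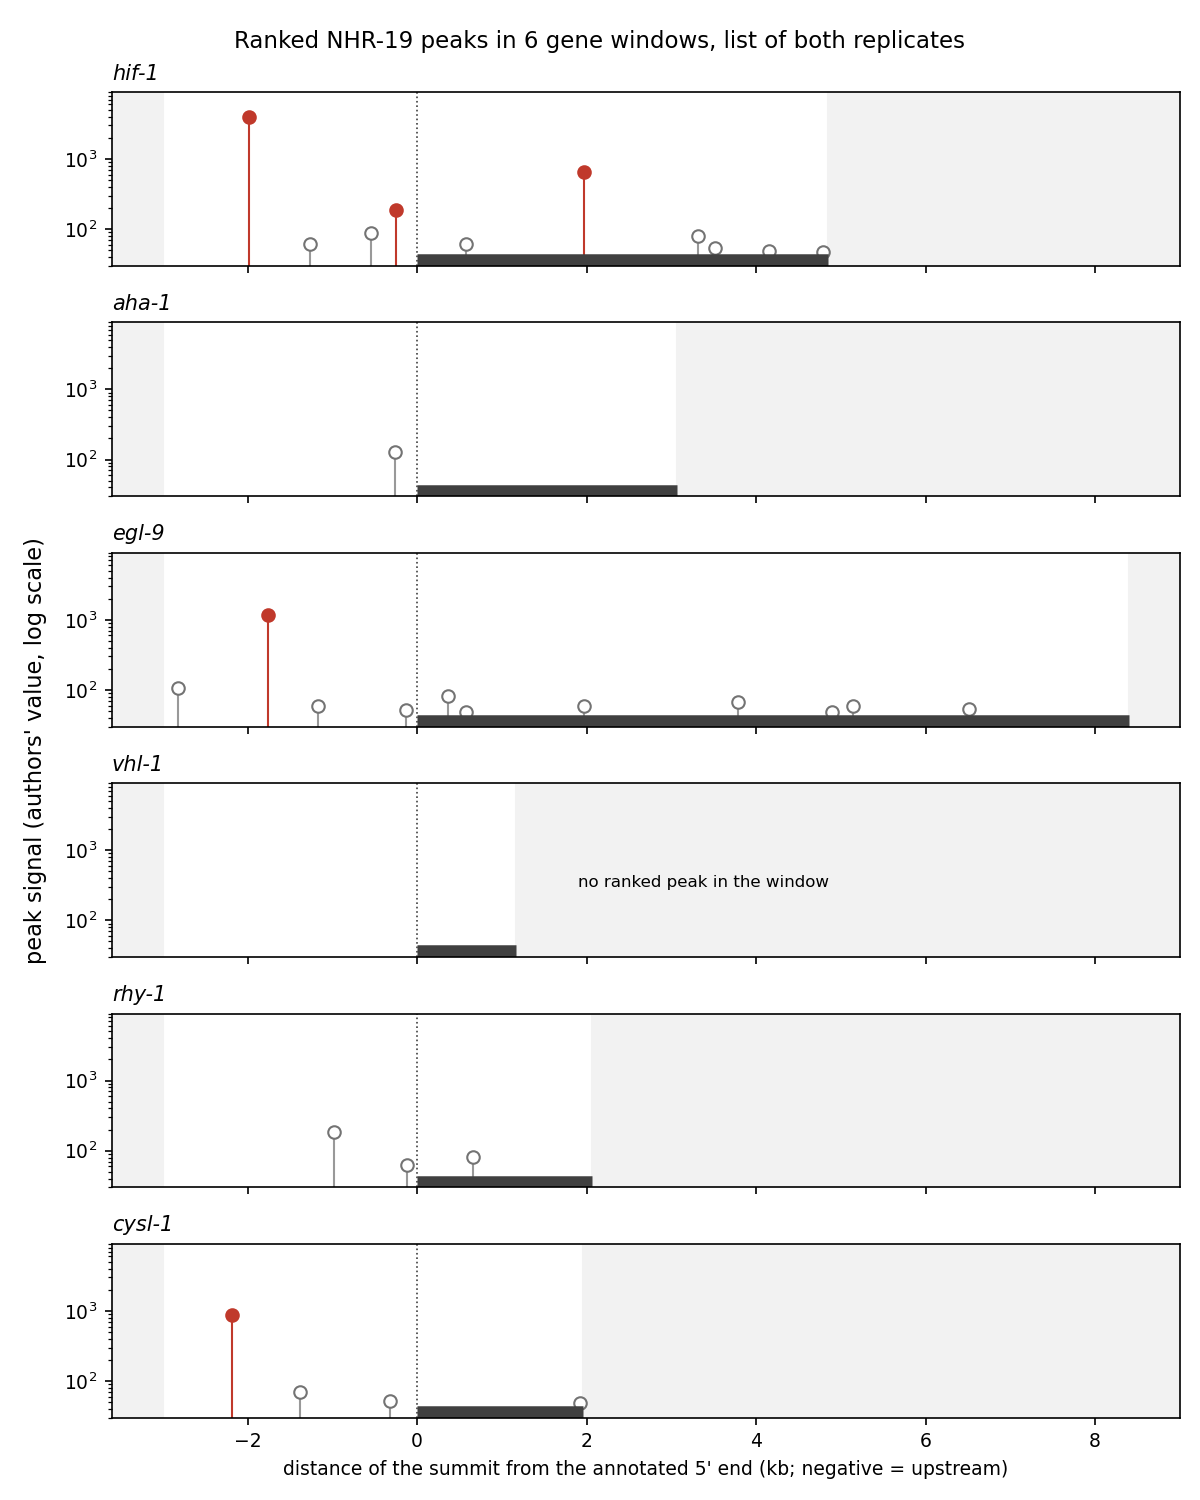
Each panel shows the window of 1 gene, with the distance of every ranked peak summit from the annotated 5′ end in kb on the horizontal axis and the authors' signal on a logarithmic vertical axis. Filled red circles are sites, open grey circles are failing candidates, the dark bar is the gene and grey shading lies outside the window; hif-1 had 3 sites, egl-9 and cysl-1 had 1 each, and vhl-1 had no ranked peak.

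The transcription factor gene hif-1 (WBGene00001851, chromosome V, 20780407 to 20785260, plus strand) had the strongest site of the pathway. Its distal site, a peak from 20778190 to 20778671 with the summit in intergenic sequence 1986 bp upstream of the 5′ end, had a signal of 4028 in the list of both replicates, 1949 in replicate 1 and 2088 in replicate 2. It ranked 14 of 4560, 21 of 3780 and 13 of 3763 in these lists, within the top 0.307%, 0.556% and 0.345%. The replicates placed the summit within 1 bp of each other. Including hif-1, 27 genes (0.135%) had a site of this signal or higher in their window. The sites ranked directly above and below lay nearest to D2023.4 (4402) and C34B4.2 (3887), 1591 and 3076 bp from the 5′ ends of these genes.

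A second hif-1 site lay inside the gene. Its peak ran from 20782228 to 20782512 with the summit in an intron, 1966 bp downstream of the gene's 5′ end. The annotation gives hif-1 6 transcripts with 4 different 5′ ends, and this summit lay 99 bp upstream of the start of the transcript F38A6.3c.1. The signal was 646 (rank 805) in the list of both replicates, 347 (rank 815) in replicate 1 and 302 (rank 816) in replicate 2. Its place in the order was thus nearly the same in all these lists.

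The proximal hif-1 site was weak. Its peak ran from 20779961 to 20780360 with the summit 246 bp upstream of the 5′ end, in intergenic sequence, and had a signal of 186 (rank 3266), with 96.0 (rank 3305) in replicate 1 and 86.7 (rank 3223) in replicate 2. Its IDR was 3.82e-04 in the list of both replicates, against the 1.00e-05 floor at the other hif-1 sites. The distal site was therefore the tallest of hif-1 and the one nearest to the gene's 5′ end the lowest. The intron site, taller than the proximal one, lay 99 bp from another hif-1 transcript start. Of 7 failing candidates in the window, the strongest, 538 bp upstream, had 89.2 at an IDR of 0.723.

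The order of the hif-1 sites was the same in each replicate. The nearest site just outside the window, 3434 bp upstream of hif-1, had a signal of 1906 (rank 133), with 1008 in replicate 1 and 960 in replicate 2, and lies closer to F38A6.4, at 1604 bp. It shares with the distal and proximal sites the 5037 bp between hif-1 and F38A6.4, which point away from each other.

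The partner gene aha-1 (WBGene00000095, chromosome I, 10193925 to 10196997, minus strand) had no site. Its window held 1 ranked peak, from 10197059 to 10197458, with the summit in intergenic sequence 262 bp upstream of the 5′ end and 62 bp from the 5′ end of the divergent neighbour C25A1.15. The signal was 127 at an IDR of 0.0853, with 53.0 (IDR 0.590) in the ranked list of replicate 1 and 75.0 (IDR 0.0148) in that of replicate 2. Neither replicate's own thresholded list contained it. The list of pooled pseudoreplicates, which are taken from the merged reads, did contain it.

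The hydroxylase gene egl-9 (WBGene00001178, chromosome V, 10468517 to 10476915, plus strand) had 1 site. Its peak from 10466598 to 10466924 had the summit 1759 bp upstream of the 5′ end, within exons of a pair of annotated non-coding RNA genes, F22E12.9 on the minus strand and F22E12.10 on the plus strand. The signal was 1188 in the list of both replicates, 671 in replicate 1 and 547 in replicate 2. It ranked 327, 301 and 335, within the top 7.17%, 7.96% and 8.90%. The nearest protein-coding 5′ end was that of egl-9, followed by F22E12.3 at 3382 bp.

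The egl-9 window is the longest of the 6, at 11399 bp, and 42.4% of the genes with windows of that length or more had a site. The rest of it was low. The 10 failing candidates had signals of 47.8 to 105, and none of them was called in any thresholded list. Around egl-9 the site stood alone, with the next site 104753 bp away on one side and 59360 bp on the other, whereas the median distance from a site to its nearest neighbour was 3848 bp. Only 73 sites (1.60%) were as far from the next one. Ranked peaks were not missing there, since the 164 kb between those neighbours held 32 of them, against 33.7 at the genome mean.

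The ligase gene vhl-1 (WBGene00006922, chromosome X, 11307356 to 11308518, plus strand) had neither a site nor a failing candidate in its window of 4163 bp, in any of the 8 lists. This was so for 39.4% of protein-coding genes in the ranked list of both replicates. Within 39.6 kb around it, between the closest sites on each side, the ranked list held 2 peaks, against 8.14 at the genome mean. The closest sites were 7556 bp upstream, beside snrp-40.1, with a signal of 472, and 32060 bp beyond the 5′ end on the other side, beside aco-1, with 197. The stretch between them holds no site by its definition, whereas the genome mean counts sites too. Stretches defined alike around rhy-1 and aha-1, also without a site, held 18 ranked peaks against 25.7 and 6 against 9.09.

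The regulator gene rhy-1 (WBGene00012324, chromosome II, 9161379 to 9163448, plus strand) was where the replicates disagreed. A peak from 9160205 to 9160604, with the summit 974 bp upstream in the 1394 bp between oac-54 and rhy-1, had a signal of 183 in the ranked list of both replicates. That is close to the 186 of the proximal hif-1 site, but its IDR was 0.0244, above the threshold of 0.01. In replicate 1 it was a site with a signal of 119 (rank 2776, IDR 4.89e-04), and in replicate 2 it was a failing candidate with 57.4 (IDR 0.649). The list of pooled pseudoreplicates also contained it. Other candidates in the window, 116 bp upstream and 661 bp downstream of the 5′ end, had 62.0 and 81.7.

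The replicate 2 signal of the rhy-1 peak was 0.481 of its replicate 1 signal. Over the 4466 sites matched in the ranked lists of both replicates, this ratio had a median of 0.876, a 5th percentile of 0.600 and a 95th percentile of 1.27. The threshold itself selects for peaks that rank alike in the replicates, so this range describes passing peaks only. The ratios of the 5 sites were 1.07, 0.903 and 0.869 for the distal, proximal and intron sites of hif-1, 0.816 for egl-9 and 1.12 for cysl-1, all within it. Ratios of the strongest failing candidates of aha-1 and egl-9, 1.42 and 1.59, lay above this range. That of cysl-1, 0.877, lay within it, but the replicate summits it compares lay on opposite sides of the candidate's summit. They were 131 bp from it in replicate 1 and 175 bp in replicate 2, so this ratio may not describe a single peak.

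The gene cysl-1 (WBGene00007653, chromosome X, 9952579 to 9954533, minus strand) had 1 site. Its peak from 9956581 to 9956901 had the summit in intergenic sequence 2189 bp upstream of the 5′ end, and lay almost as close to the divergent neighbour ZC506.1, at 2238 bp, whose window holds it too. The signal was 884 (rank 536) in the list of both replicates, 420 (rank 643) in replicate 1 and 469 (rank 429) in replicate 2, within the top 11.8% of the list of both replicates. The 3 failing candidates of cysl-1 reached at most 68.9.

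More sites stood just beyond the upstream end of the cysl-1 window. One at 3139 bp upstream had a signal of 444 (rank 1296), with 173 in replicate 1 and 275 in replicate 2, a ratio of 1.59 that lies above the 95th percentile of all sites. Another at 4258 bp had 1396 and lay 169 bp from the 5′ end of ZC506.1. Like the stretch upstream of hif-1, the 4426 bp between cysl-1 and ZC506.1 held 3 sites. Among 368 stretches of 4000 to 6000 bp between divergent protein-coding genes, 9 (2.45%) held 3 or more, a comparison chosen after these values were seen.

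**Figure D2:**
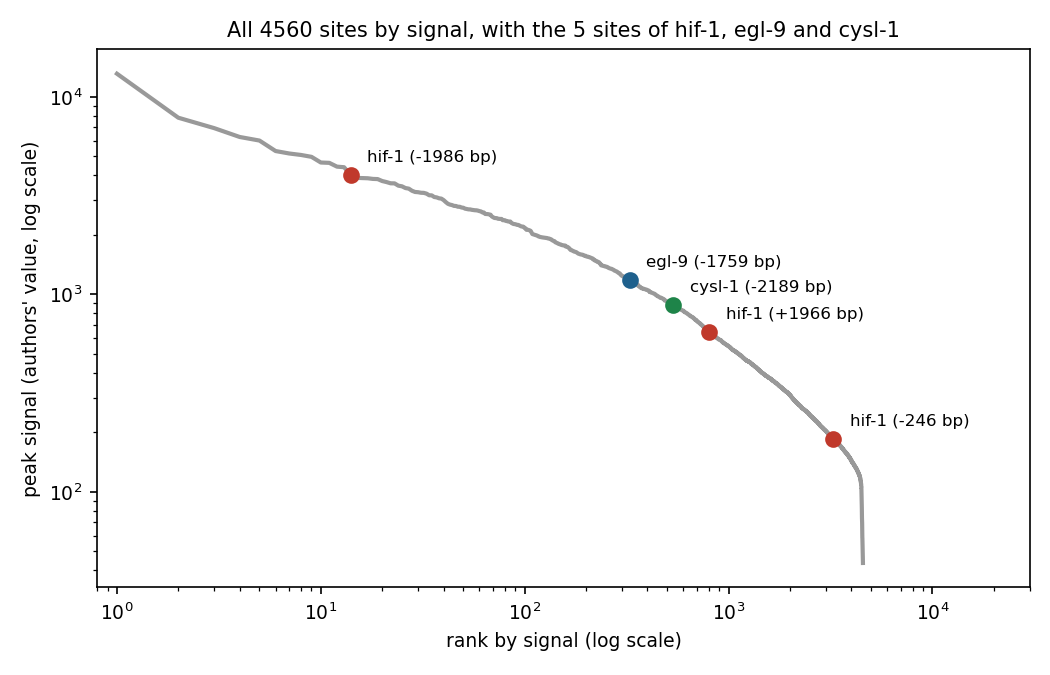
The grey line gives the authors' signal of all 4560 sites against their rank, both on logarithmic axes, and the circles mark the 5 sites with their distance from the gene's 5′ end in bp. The distal hif-1 site is at rank 14, those of egl-9, cysl-1 and the hif-1 intron are at ranks 327, 536 and 805, and the proximal hif-1 site is at rank 3266.

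Of the 5 sites, 4 lay over 1500 bp from the nearest protein-coding 5′ end at gene level, against 37.9% of all sites and a median of 855 bp. The exception was the proximal hif-1 site at 246 bp, and the intron site, counted among the 4, lay 99 bp from the start of another hif-1 transcript. In each of the 5, the nearest such 5′ end was that of the pathway gene itself, at cysl-1 narrowly (2189 bp, against 2238 bp to ZC506.1). Counted by gene, 2980 of the 4791 protein-coding genes with a site had one nearest to their own 5′ end. A summit within 200 bp was present in the own thresholded lists of both replicates for 5 of 5, against 67.1% of all sites. Of the 5, 4 were among the upper 20% of sites by rank, whereas the 67.1% covers sites of every rank. The list of pooled pseudoreplicates gave sites at 5 genes, adding rhy-1 and aha-1 (background 23.8%).

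**Figure D3:**
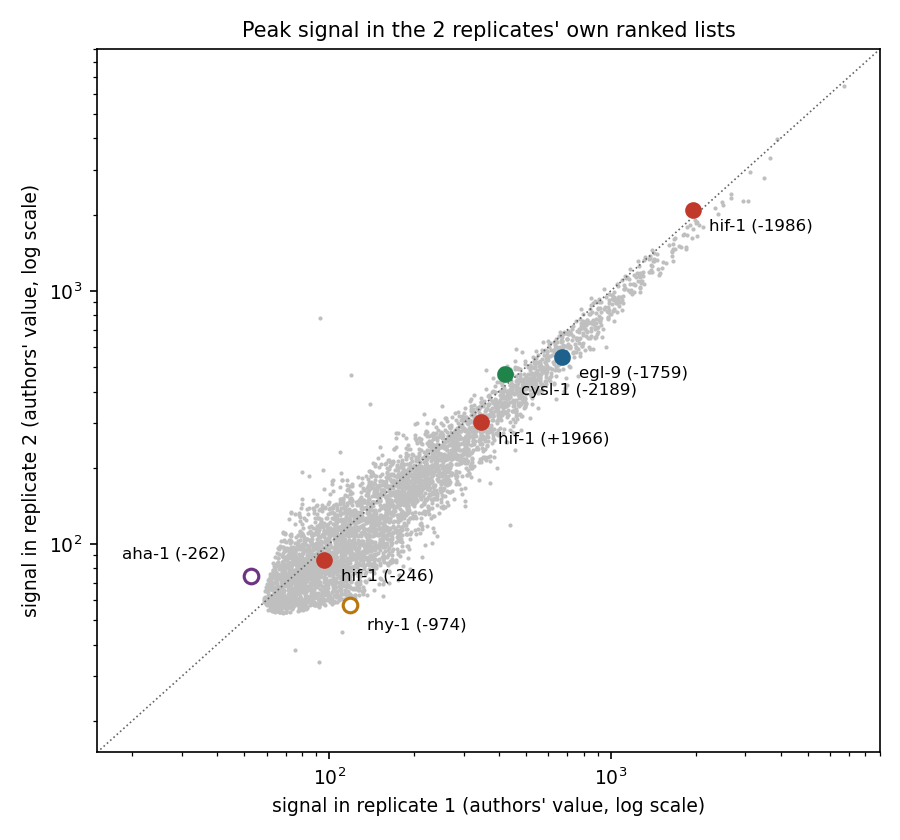
Signal in the ranked list of replicate 1 is plotted against that of replicate 2, on logarithmic axes, for the 4466 sites matched in both (grey) with the 5 sites (filled) and the strongest failing candidates of rhy-1 and aha-1 (open); the dotted line marks equal values. The filled circles lie within the grey cloud, and the open circles toward its low-signal end. The rhy-1 circle (119 against 57.4) lies below the dotted line and the aha-1 circle (53.0 against 75.0) above it.

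None of the searched words lay within 50 bp of the proximal hif-1 summit. The share of all sites with none of them was not counted, so words are given singly. The hypoxia response core lay within 50 bp of the egl-9 summit, at 2 positions starting 42 and 30 bp upstream, and at none of the other sites. It lay within 50 bp of 34.7% of all sites, and 12.5% of all sites had 2 or more matches. The failing candidate of rhy-1 also had it at 2 positions, starting 19 and 34 bp downstream of its summit. Words at the other failing candidates are not given, so whether they also have the core is not shown. The GAGA repeat lay at the distal and the intron sites of hif-1, 2 of 5, against 25.8% of all sites. The nuclear receptor half-site lay at the cysl-1 summit, starting 1 bp upstream of it, against 13.7% of all sites. No E-box and no CG-rich box lay at any of the 5, against 7.76% and 5.68% of all sites. These are matches of letters, and binding of a factor to them was not measured.

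The GC content of the 101 bp was 51.5% at the distal, 42.6% at the proximal and 39.6% at the intron site of hif-1. It was 44.6% at egl-9 and 37.6% at cysl-1. All 5 values lay between the 10th and 90th percentiles of all sites, 35.6% and 56.4%, with a median of 45.5%.

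Further genes around the pathway were taken from 5 lists of 33 genes, of which 31 were matched by symbol; sqrd-2 and daf-21 were not. A site lay in the window of 21 of the 31 (67.7%), against the 24.0% of all protein-coding genes. The lists were drawn up with earlier results of these data known, and this share was not tested. Their strongest sites had a median signal of 319, against 347 over all genes with a site. By list, the median was 383 for the ligase subunits and EGL-9 partner, 319 for hydrogen sulfide and cysteine metabolism, 224 for the responsive genes and 508 for other regulators, and these differences were not tested. In 14 of the 21 the nearest protein-coding 5′ end to the strongest site was the gene's own. As background, 2980 of the 4791 protein-coding genes with a site had any site nearest to their own 5′ end.

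Of the ubiquitin ligase that contains VHL-1, the elongin B gene elb-1 had a site 167 bp upstream with a signal of 512 (304 in replicate 1 and 208 in replicate 2). The elongin C gene elc-1 had 947 at 1683 bp upstream, but this site lay 323 bp from Y82E9BR.3. The RING protein gene rbx-1 had 166 at 394 bp upstream, a peak absent from the thresholded list of replicate 1. The list of pooled pseudoreplicates also lacked this peak. The scaffold gene cul-2 had no site, and its strongest candidate had 64.0. The gene swan-1, whose WD-repeat product binds EGL-9, had 254 at 1479 bp upstream. A site was thus present at 4 of these 5 genes.

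None of the 3 genes for other bHLH-PAS proteins that pair with AHA-1 had a site. Their windows, which had a median length of 7503 bp, each held 1 failing candidate, with 64.3 at the aryl hydrocarbon receptor gene ahr-1, 70.1 at cky-1 and 61.2 at hlh-34.

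Of 11 genes of hydrogen sulfide and cysteine metabolism, 7 had a site. The cysteine synthase family gene cysl-2, known as a strong HIF-1 target, had 561 at 2554 bp upstream, though nearer to dhs-8. The persulfide dioxygenase gene ethe-1 had 827 at 2756 bp, nearer to C33A12.4, and the cystathionine beta-synthase gene cbs-1 had 369, nearer to gnrr-3. Sites nearest to the gene itself were those of the cysteine dioxygenase gene cdo-1 (319), the cystathionine gamma-lyase gene cth-2 (258), the sulfide quinone oxidoreductase gene sqrd-1 (233, at 32 bp upstream) and the sulfite oxidase gene suox-1 (155). The sites of cth-2 and sqrd-1 were absent from the thresholded list of replicate 2, and that of suox-1 from both. The genes cysl-3, cysl-4, cbs-2 and cth-1 had no site.

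Of 8 genes that respond to hypoxia or HIF-1, 6 had a site. The nuclear receptor gene nhr-57, a commonly used reporter of HIF-1 activity, had 557 at 230 bp upstream, with 276 in replicate 1 and 269 in replicate 2. The lactate dehydrogenase gene ldh-1 had 344 at 421 bp downstream of its 5′ end. F22B5.4 had 226, the flavin monooxygenase gene fmo-2 had 222 and the ferritin gene ftn-1 had 207. The glycogen synthase gene gsy-1 had 132, nearer to F35C5.1. The sites of F22B5.4 and fmo-2 were absent from the thresholded list of replicate 2, and that of gsy-1 from both. The collagen prolyl hydroxylase gene phy-2 and the metal transporter gene smf-3 had none.

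All 4 matched genes of other regulators had a site, in windows with a median length of 8875 bp. The AMP-activated kinase gene aak-2 had 3, the strongest with a signal of 1065 in the gene at 967 bp downstream of the 5′ end. The nuclear receptor gene nhr-49 had 525 at 335 bp upstream, and the kinase gene hpk-1 had 291, nearer to W01H2.2. The mitochondrial chaperone gene hsp-6 had 492 at 422 bp upstream, with the summit 178 bp from the 5′ end of C37H5.5. Of the 31 genes, none reached the 4028 of the distal hif-1 site or the 1188 of egl-9.

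**Figure D4:**
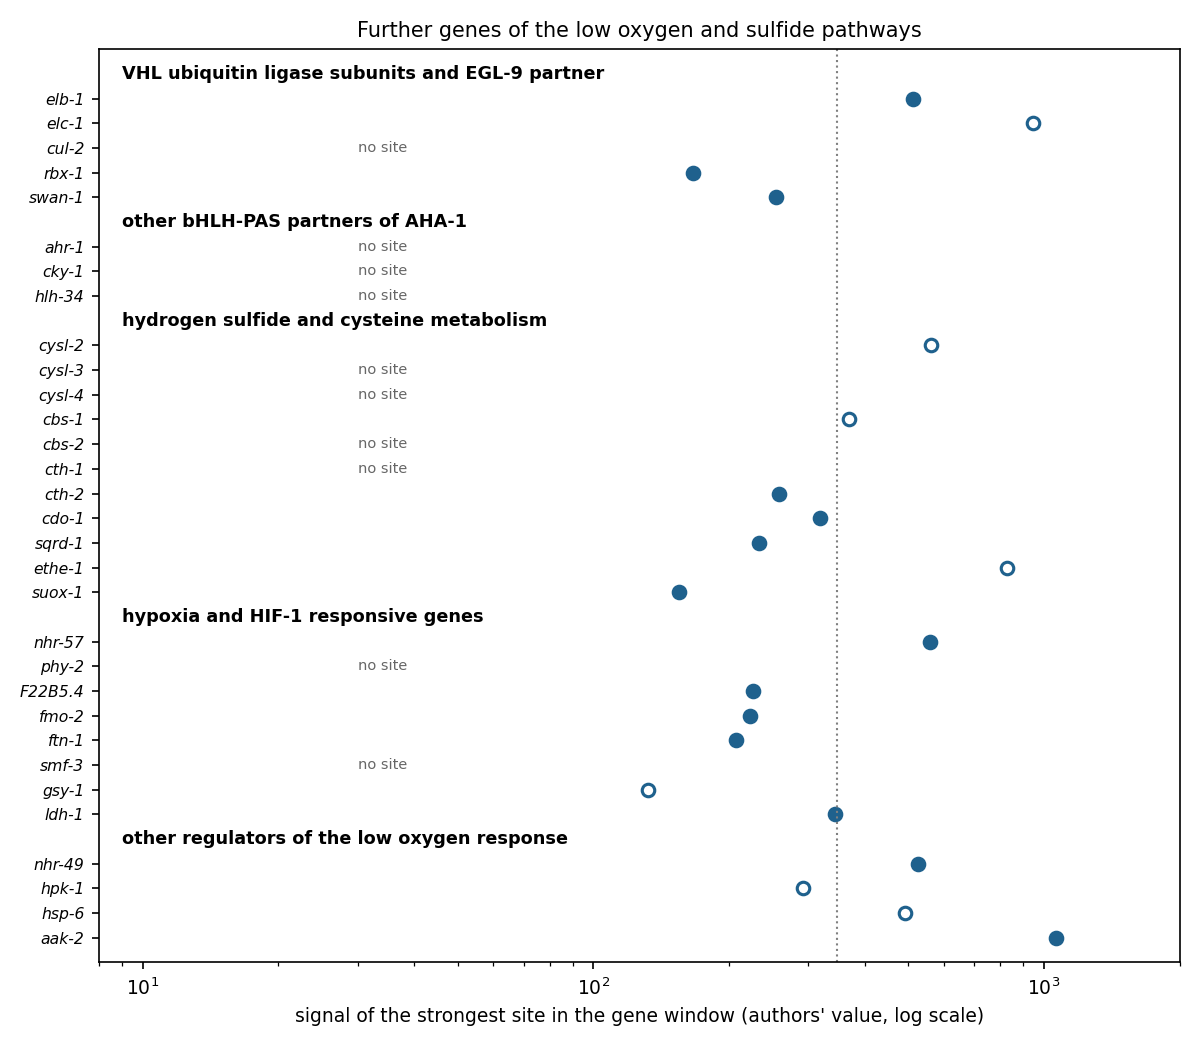
The authors' signal of the strongest site in the window of each of the 31 matched genes is shown on a logarithmic axis, by list, filled where the nearest protein-coding 5′ end is the gene's own and open where it is another gene's. The dotted line marks the median of 347 over all genes with a site; values ran from 132 (gsy-1) to 1065 (aak-2), and 10 genes had no site.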

How the data were processed

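Peak lists from ChIP-seq of NHR-19 in 2 replicates were used. Per the labels and the accompanying notes, the 8 lists deposited by the authors use the ce11 assembly. Each gives a signal value per peak, and the ranked lists also give the −log10 of the IDR, as deposited. Which aligner, peak caller and control were used is not given in the sources used here. Chromatin was sonicated to 200 to 800 bp, per the labels. All 4560 peaks of the main list had an IDR of at most 0.00998 in its ranked list of 20609 peaks, and 24 ranked peaks under 0.01 were not in it. In the 2 ranked lists of the series, 16 columns with values per replicate lack sample names, and they were left out. Which of these lists holds true replicates was read from their peaks.

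Summits were set against Ensembl release 115 genes (WBcel235). All peaks end within the chromosomes of the RefSeq genome of that build, and the 6 genes have the same ends in both annotations. A site was matched to another list by the nearest summit within 200 bp. Words were sought within 50 bp of summits on both strands. No test was run, because the single group allows no comparison between groups and the genes were chosen on these peaks. Members and gene lists were chosen with earlier results of these data known. Genes named are the 6 members, the genes nearest to their sites, sites ranked next to the strongest, and list genes. The window rule was checked on simulated sites. Python 3.11.15 with pandas 2.3.3 was used. Alternatives were other windows, lists, thresholds, matching distances and each replicate alone. Depth is unknown, so no counting interval is given.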

Additional observations from a re-analysis of the deposited data

How the results depend on the processing

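With 1000 bp upstream, the windows held 2 sites, both of hif-1, so 1 gene had a site in place of 3, while all protein-coding genes with a site fell in number from 4791 to 3456. With 5000 bp they held 8 sites at the same 3 genes, with 5851 of all genes, and with pooled pseudoreplicates 5 genes had a site. Each replicate alone gave 3 or 4 genes and 5 or 6 sites, and 4187 to 4226 of all genes had a site. All protein-coding genes with a site numbered 2956 with the strongest 50% of peaks and 2980 with nearest genes only. Of the 31 further genes, 13 had a site with 1000 bp upstream, 12 with the strongest 50% of peaks and 15 to 18 with 1 replicate, against 21. At an IDR of 0.05, rhy-1 also had a site, which made 4 genes, while 5350 of all genes had one, against 4791. Matching within 100 or 500 bp found 5 of 5 sites in both replicates. No paired analysis was possible because there is only 1 group. Depth limits which weak peaks were called, to an unknown extent.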
